A study of Mus musculus with 38 samples.

Results

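Binding of heat shock factors HSF1 and HSF2 was compared at the genomic regions that both factors share in asynchronous mouse embryonic stem (ES) cells. The regions are pairs of intervals, 1 from the list of HSF1 sites and 1 from the list of HSF2 sites, that overlap by at least 1 bp. There were 888 such pairs, made of 883 of the 1726 HSF1 intervals and 868 of the 2135 distinct HSF2 intervals. The HSF2 list repeats 6 intervals exactly, and these were counted once. The question is which shared regions stand high for HSF1, which for HSF2 and which for both.

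The series maps transcription factors by CUT&Tag, in which an antibody guides the Tn5 transposase to the protein of interest so that the DNA beside it is cut and tagged. It holds 38 libraries in 19 conditions of JM8, an established line of mouse ES cells, and of an Hsf2 knockout derived from it. For the main comparison, HSF1 and HSF2 were each profiled in 2 libraries of wild type JM8 cells that were growing asynchronously, received no nocodazole. Over the HSF2 intervals the same tables also hold asynchronous Hsf2 knockout cells that express full-length Halo-HSF2 (profiled with anti-HSF2 and with anti-HA) or the DNA-binding domain alone, Halo-H2DBD (anti-HA). These cells carry no untagged HSF2, and the tagged protein comes from a stably integrated construct. The mitotic cells of the series, which were collected after nocodazole at 50 ng/ml for 6 h, enter only where they are named. The 2 factors were detected with different antibodies. For HSF1 the labels name Enzo as the source and the methods name Abcam. The tables hold no expression values, so the ES cell identity could not be checked against its markers.

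HSF1 and HSF2 belong to a family of transcription factors that share a winged helix-turn-helix DNA-binding domain and bind as trimers. Their target, the heat shock element, is a run of inverted repeats of the pentamer nGAAn. HSF1 is the main activator of chaperone genes after heat shock, whereas HSF2 is best known for roles in development, in gametogenesis and in cells with a low proteasome activity, and both can enter the same trimers. The element was searched here as 3 inverted GAA units with a spacer of 2 bases of any kind, on both strands (GAANNTTCNNGAA or its complement TTCNNGAANNTTC). The longer form with 4 units contains the form with 3. All 9 fixed bases of the 3 units had to match, so a region without an element here may still hold a variant of it. Variants were counted only where this is stated. Hspa1a, Hspa1b, Dnajb1 and Bag3 are among the heat shock genes without an exact match.

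The sequences below are printed from GRCm38.p6, the assembly behind the mm10 coordinates of the sites. The lines with an element were taken from named regions that hold one, so they do not stand for every extreme of the comparison. The D5Ertd579e region, with the largest difference toward HSF2 (−96.2 points), and the genes Bend4 and Hspa1a hold no exact match. In each sequence, 5′ to 3′, capitals mark the heat shock element and lower case its surroundings. The first 5 lines come from regions where HSF2 ranked far above HSF1. The element near Prdm16 lies in an intron of that gene (chr4:154577341-154577388, plus strand) and the element in the 2410131K14Rik region is intergenic (chr5:118308986-118309033, plus strand), and both have 4 units. Those of Otx1 (chr11:21993302-21993344, minus strand), Aldh1a2 (chr9:71215356-71215398, plus strand) and Myrf (chr19:10241319-10241361, minus strand) have 3 units and lie outside annotated transcripts. The Otx1 element lies in the HSF2 interval alone.
Prdm16 intron: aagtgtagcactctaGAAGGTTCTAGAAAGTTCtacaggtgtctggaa
2410131K14Rik region: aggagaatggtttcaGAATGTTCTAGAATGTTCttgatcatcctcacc
Otx1: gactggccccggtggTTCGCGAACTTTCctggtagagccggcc
Aldh1a2: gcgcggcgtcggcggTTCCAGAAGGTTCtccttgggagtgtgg
Myrf: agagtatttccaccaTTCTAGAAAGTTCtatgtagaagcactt

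The next 5 lines come from regions at the top of both lists. At Hspa8, which encodes a constitutive HSP70 chaperone, both elements lie in an annotated untranslated region (chr9:40801055-40801083 and chr9:40801213-40801241, plus strand), centered 85 and 243 bp downstream of the start. At Slc35e2, which encodes a member of a solute carrier family, both lie in an annotated untranslated region (chr4:155601560-155601588 and chr4:155601781-155601809, plus strand). At Hspd1, which encodes the mitochondrial chaperonin HSP60, 1 element of 4 units (chr1:55088044-55088091, minus strand) lies between Hspd1 and its divergent neighbor Hspe1, centered at position −43 from the Hspd1 start. Elements in untranslated regions are shown with 8 flanking bases and the others with 15.
Hspa8 first: gcgagcgtGAAAGTTCCAGAAcgccgcgg
Hspa8 second: cggcacccTTCTGGAAGGTTCtaagacag
Slc35e2 first: tctcggtgGAACGTTCCGGAAtgtaccac
Slc35e2 second: ccgcggtgGAACGTTCTGGAAggtgccat
Hspd1: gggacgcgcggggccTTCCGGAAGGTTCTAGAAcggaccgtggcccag

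Among the 10 genes with the largest preference for HSF1, only Pbx4, a homeobox gene, had an element of 3 units, in an intron 714 bp downstream of its start (chr8:69833184-69833226, plus strand). It is printed first. The other sequences are the 150 bases upstream of the starts of the 3 genes with the largest preference for HSF1, with GC boxes (GGGCGG) and CCAAT boxes in capitals, on either strand. They are Nlk (chr11:78697374-78697523), Aldh6a1 (chr12:84451004-84451153) and Rxylt1 (chr10:122097372-122097521), all on the minus strand and outside annotated transcripts. They held 1 GC box and 1 CCAAT box at Nlk, 3 CCAAT boxes at Aldh6a1, and neither letter run at Rxylt1.
Pbx4: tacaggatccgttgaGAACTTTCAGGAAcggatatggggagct
Nlk: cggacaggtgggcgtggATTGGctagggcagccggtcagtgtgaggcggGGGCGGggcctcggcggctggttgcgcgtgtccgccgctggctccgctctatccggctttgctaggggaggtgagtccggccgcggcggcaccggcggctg
Aldh6a1: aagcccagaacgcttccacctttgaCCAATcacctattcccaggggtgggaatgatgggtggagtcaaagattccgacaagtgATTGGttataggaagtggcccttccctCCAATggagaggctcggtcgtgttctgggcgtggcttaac
Rxylt1: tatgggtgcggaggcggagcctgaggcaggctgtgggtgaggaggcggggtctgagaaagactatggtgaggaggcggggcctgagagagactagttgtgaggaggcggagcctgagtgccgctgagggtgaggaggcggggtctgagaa

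Each value is the authors' mean over 2 libraries of the spike-in scaled CUT&Tag signal, averaged over the bases of an interval. The tables hold no column per library, so the spread between replicates is unknown and no difference between the factors could be tested. They hold no read totals either. The study's supplement lists totals for some libraries, among them Halo-HSF2 and Halo-H2DBD by anti-HA, which were not used here. Intervals given with medians (95%, from order statistics) and shares (95%, Wilson) describe the pairs and cover no variation between cultures. Because the tracks of the factors were scaled separately, levels were not compared between them. Each interval was ranked within its own full list, and its percentile is the percent of that list with a lower signal. The rank difference is the HSF1 percentile minus the HSF2 percentile, in points. A pair was called higher for HSF1 or for HSF2 from a difference of 25 points, and similar otherwise.

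Several properties of these tracks bear on every result. The authors combined the sites called in asynchronous and mitotic cells, so some intervals may have been called in mitotic cells alone. The asynchronous HSF1 values in the score table differed in rank from those carried by the HSF1 peak list (Spearman rho 0.793 over 1726 intervals), whereas those of HSF2 hardly did (rho 0.999 over 2135). The signals that share the name HSF2 did not rank the intervals alike. Over all 2135 distinct HSF2 intervals, endogenous HSF2 had a rho of 0.170 with Halo-HSF2 by anti-HSF2, 0.0754 with Halo-HSF2 by anti-HA and 0.0719 with Halo-H2DBD. Against endogenous HSF2 of mitotic cells, made with the same antibody in the same cells, rho was 0.490.

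By median signal, shared regions were stronger than unshared ones in both lists. The median HSF1 signal was 7.80 over the 883 paired intervals and 4.88 over the 843 unpaired ones, and the median HSF2 signal was 5.55 over 868 and 3.48 over 1267. The pairs stood at a median percentile of 62.5 for HSF1 and 64.4 for HSF2. Signals of the pairs ran from 0.656 to 145 for HSF1 and from 0.164 to 115 for HSF2. The highest signal of each list lay outside the pairs, at 277 for HSF1 and 142 for HSF2. Most pairs were simple, with 841 in which each interval had a single partner, and the shared stretch had a median of 1893 bp. The smallest overlap was 9 bp (HSF1 percentile 41.9, HSF2 percentile 25.6), and the nearest HSF1 and HSF2 intervals outside the rule were 372 bp apart (54.6 and 70.6).

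The ranks of the 2 factors were weakly related within the shared regions, and the value depended on the measure. The rho of the percentiles was 0.038 over 888 pairs, 0.118 over the 565 with a coding start and 0.057 over the 323 without one. It was 0.258 with the signal summed over the interval, 0.183 with the peak list values and −0.172 among pairs with at least 1 factor at or above its median, a choice that removes pairs low for both. The pairs share their libraries, mapping and base composition, so this is a description of the tracks. The median rank difference was 2.06 points (−0.66 to 5.45), with a range from −96.2 to 90.1. HSF1 was higher at 214 pairs (24.1%, 21.4% to 27.0%) and HSF2 at 245 (27.6%, 24.8% to 30.6%), and 429 were similar (48.3%). At 110 pairs (12.4%) both percentiles were at least 75. The values at the edge of the calls were 25.02 points inside and 24.997 outside for HSF1, and −25.1 inside and −24.8 outside for HSF2.

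**Figure D1:**
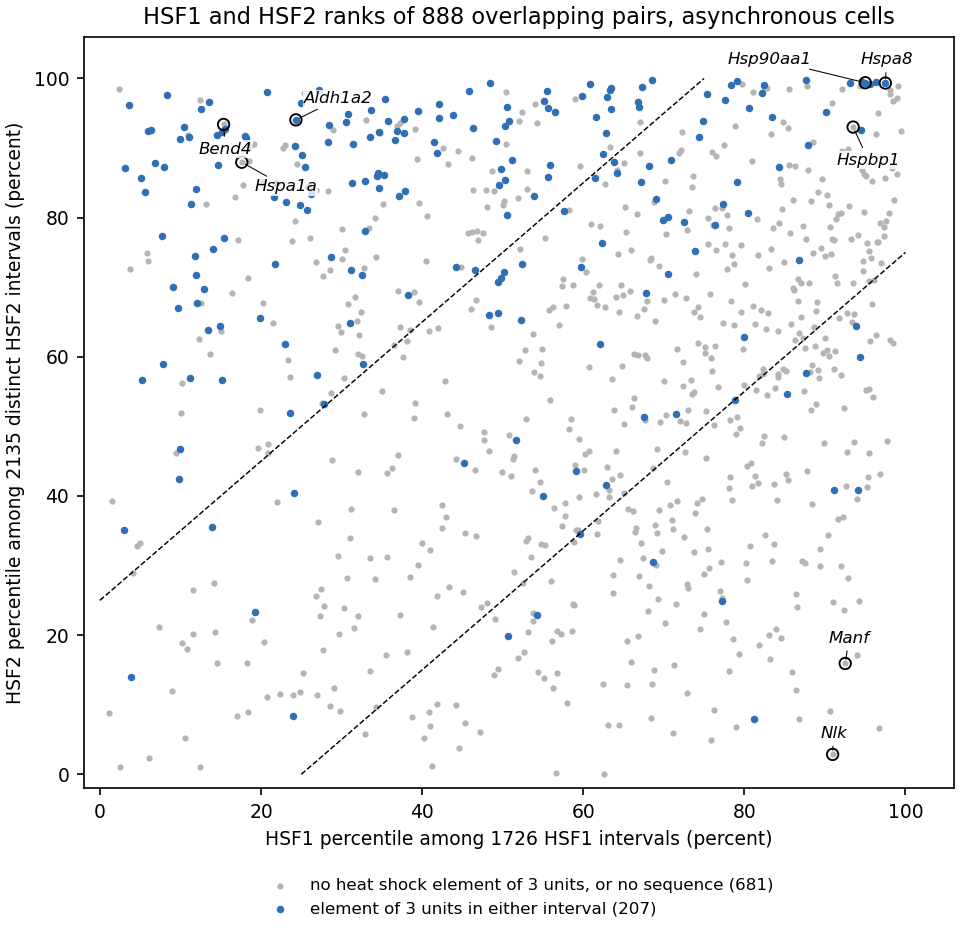
HSF1 percentile among the 1726 HSF1 intervals (x axis) against HSF2 percentile among the 2135 distinct HSF2 intervals (y axis) for the 888 pairs, with the 207 pairs that hold a heat shock element of 3 units in blue and the others in gray. Dashed lines mark 25 points and open circles mark 8 named genes, and the points fill the plane, with the blue points gathered at the top.

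A pair was assigned to a protein-coding gene when a transcript start of GENCODE M21 lay within 1 kb of both intervals. By this rule 565 pairs had a coding start, and 685 genes had a pair, of which 231 shared their pair with another gene. HSF1 was higher at 206 genes (30.1%) and HSF2 at 115 (16.8%). For naming, a preferred factor also had to reach percentile 75, which left 118 genes for HSF1, 74 for HSF2 and 82 (12.0%) at which both factors reached it. The genes below were chosen by these values, so their ranks describe them and are no test.

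The genes with the largest preference for HSF1 encode proteins of varied functions and no chaperone of the HSP families. Nlk, which encodes a kinase of the Wnt and Notch pathways, had an HSF1 signal of 15.9 (percentile 91.0) and an HSF2 signal of 0.911 (percentile 2.86), a difference of 88.1 points. Both intervals enclose its start on chromosome 11 (HSF1 chr11:78696568-78698123, HSF2 chr11:78696457-78698295). Aldh6a1, a mitochondrial dehydrogenase gene of valine breakdown, had signals of 15.7 and 1.53 (percentiles 90.6 and 9.09), and Rxylt1, a glycosyltransferase gene, 13.4 and 1.39 (86.8 and 7.92). At these 3 genes HSF1 stood near the top of its list and HSF2 below percentile 10.

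Kbtbd3, which encodes a protein with BTB and kelch domains, had the strongest HSF1 signal of the group, 20.2 (percentile 94.0), with an HSF2 signal of 2.06 (17.1). Manf, which encodes a secreted neurotrophic factor that is induced by stress of the endoplasmic reticulum, had 18.1 and 2.02 (92.5 and 15.9). Mtmr4, a lipid phosphatase gene, had 19.2 and 2.22 (93.1 and 19.3). Zbtb5 (a zinc finger gene), Pbx4, Ddx42 (an RNA helicase) and Asxl2 (a Polycomb-related chromatin gene) followed, with differences of 74.2, 73.2, 72.2 and 71.0 points. With the HSF1 values of the peak list the HSF1 percentile was 38.8 at Pbx4, 53.6 at Asxl2, 57.8 at Rxylt1 and 73.3 at Zbtb5, so HSF1 did not reach percentile 75 there on that source. With the signal summed over the interval it was 42.4 at Asxl2, 65.9 at Rxylt1, 68.7 at Ddx42 and 69.9 at Manf. The other genes of this group stayed above percentile 75 with the sum. The difference of Manf was 39.1 points with the sum.

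The genes with the largest preference for HSF2 include regulators of development and inducible heat shock genes. Bend4, which encodes a protein with a BEN domain, had an HSF2 signal of 17.6 (percentile 93.4) and an HSF1 signal of 2.65 (15.4), a difference of −78.0 points (HSF2 interval chr5:67427710-67428476, across its start). Otx1, a homeobox gene of forebrain development, had 24.5 and 3.57 (96.5 and 24.9). Its element lies 8292 bp downstream of the start and only in the HSF2 interval, and with the signal summed over the interval the difference was −24.1 points, within the similar class. Aldh1a2, which encodes a retinoic acid synthesizing enzyme, had 18.6 and 3.52 (94.1 and 24.3), with its element at −412.

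Hspa1a, which encodes the inducible HSP70, had an HSF2 signal of 12.3 (percentile 88.0) and an HSF1 signal of 2.97 (17.6). The neighboring and nearly identical Hspa1b had 14.2 and 6.28 (90.6 and 50.4). Reads from the shared sequence of these paralogs cannot be assigned to one copy with certainty, so the split between them is uncertain. Zfand2a, a gene induced by arsenite and heat that encodes a zinc finger protein of the proteasome pathway, had 10.6 and 3.15 (84.9 and 20.1).

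Myrf, a transcription factor gene of myelination, had 17.4 and 4.01 (93.3 and 28.4). Ccnd3, which encodes cyclin D3, had 12.8 and 3.58 (89.0 and 25.1), although its HSF1 percentile was 65.5 in the peak list. The others were Tnfrsf19 (a receptor of the TNF family), Ankrd26 and Lats2 (a kinase of the Hippo pathway), with differences of −67.3, −66.1 and −59.6 points (Ankrd26 −21.9 with the sum). With the signal summed over the interval the HSF2 percentile was 62.0 at Bend4, 69.8 at Zfand2a, 72.2 at Ccnd3, 68.6 at Lats2 and 35.0 at Ankrd26. HSF2 thus did not reach percentile 75 at these genes by that measure, and it did at the others. Of these 10 genes, Otx1, Aldh1a2, Myrf and Ccnd3 had an element of 3 units in either interval.

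The 10 genes at the top of both lists were 5 chaperone or co-chaperone genes and 5 of other kinds. Hspa8 had an HSF1 signal of 34.8 (rank 43) and an HSF2 signal of 74.3 (rank 14). Hspd1, whose pair also covers Hspe1, had 24.2 and 71.9 (ranks 76 and 16). Hsp90aa1, the inducible HSP90 gene, had 22.4 and 75.7 (ranks 86 and 13), and Stip1, a co-chaperone that links HSP70 and HSP90, had 21.2 and 90.8 (ranks 94 and 10). All 4 hold an element of 3 units or more.

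Slc35e2 had 26.9 and 87.5 (ranks 62 and 11), and Hnrnpa2b1, which encodes an hnRNP protein, 19.2 and 73.6 (ranks 118 and 15), both with an element. Uspl1 (a SUMO isopeptidase), Cdca2 (a mitotic phosphatase regulator) and Hspbp1 (an HSP70 nucleotide exchange factor) reached at least percentile 93.0 for both factors without one. Crebzf had the highest smaller percentile of all (HSF1 98.1, HSF2 97.7), but repeats covered 67.6% of its HSF1 interval, and the part of repeats in its signal was not tested.

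**Figure D2:**
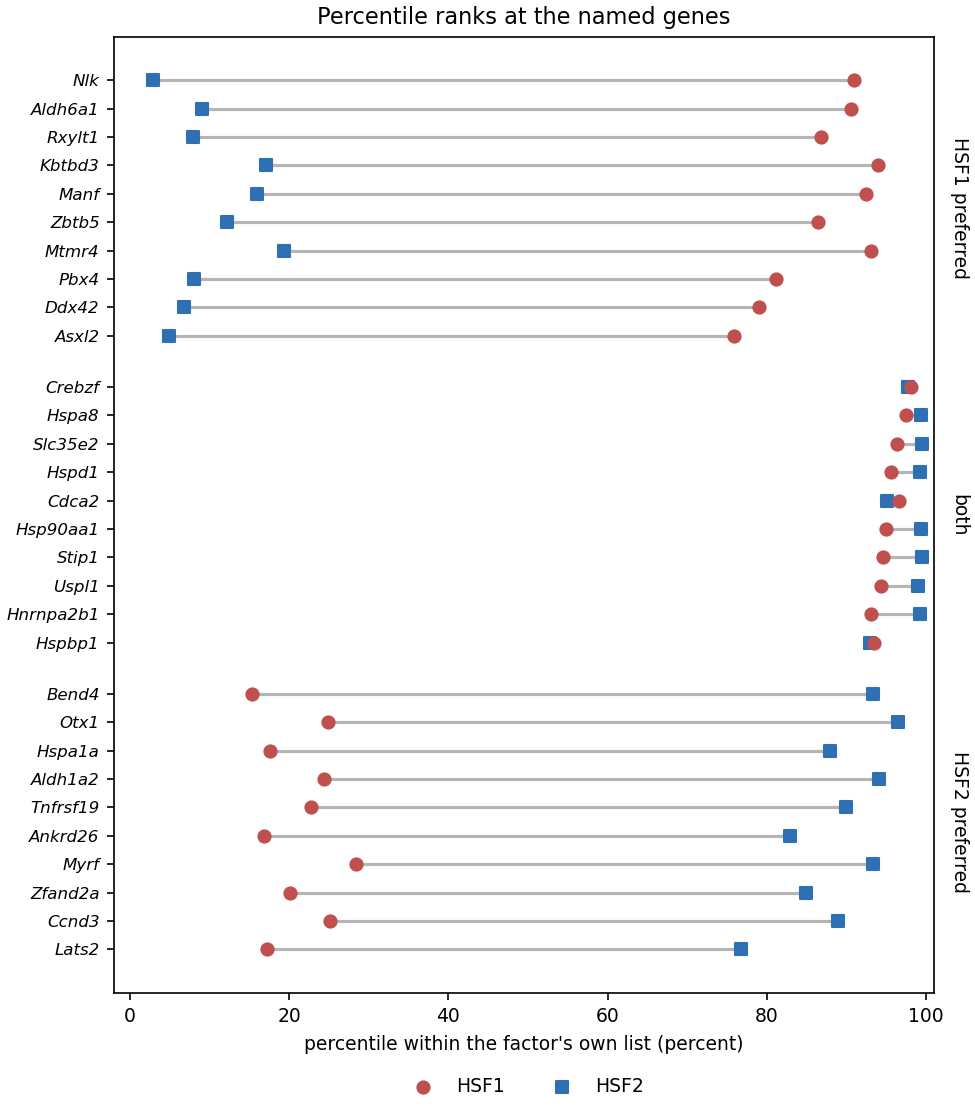
Percentile within each factor's own list (x axis) for HSF1 (red circles) and HSF2 (blue squares) at the 30 named genes, in 3 groups of 10. The circles lie far to the right at the HSF1 group (75.9 to 94.0), the squares far to the right at the HSF2 group (76.8 to 96.5), and both lie above 93.0 in the middle group.

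Away from coding starts the 5 largest differences in favor of HSF2 ran from −86.2 to −96.2 points. On chromosome 5 an HSF2 interval of the D5Ertd579e region (chr5:36660821-36661653, 34648 bp from the nearest coding start) had an HSF2 signal of 41.4 (percentile 98.5) and an HSF1 signal of 0.880 (2.38). With the HSF1 values of the peak list its HSF1 percentile was 87.5 and the difference −10.8 points, so this extreme rests on the source of the HSF1 signal. The site held neither an element nor a CpG in its central 500 bp, and it ranked at percentile 98.3 for Halo-HSF2 by anti-HA, unlike the following ones. The Prdm16 intron had 23.9 and 1.19 (96.3 and 3.59) and the 2410131K14Rik region 28.7 and 1.88 (97.6 and 8.34), both with an element of 4 units. A region of chromosome 9 nearest to Gm21915 (chr9:40635772-40637254) had 16.2 and 1.57 (92.4 and 5.91), and one of chromosome 11 nearest to Rpl38 (chr11:114403520-114405374, 264308 bp away) 16.3 and 1.63 (92.6 and 6.32). They hold elements of 3 units. In these 4 regions the Halo-HSF2 percentiles by anti-HA were 1.78, 3.33, 2.44 and 22.1.

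The regions with a preference for HSF1 away from coding starts were of another kind. The largest difference, 90.1 points, was on an unplaced scaffold that has no sequence here. At chr7:27330211-27331660, 2669 bp from the nearest start of Ltbp4, HSF1 was at percentile 85.9 and HSF2 at 14.8. The region of chromosome 4 nearest to Vmn2r-ps159 had 10.4 and 1.95 (78.1 and 14.9), repeats covered 62.2% of its HSF1 interval, and its HSF1 percentile was 59.2 in the peak list. The regions nearest to Abt1 (chromosome 13) and Csf2ra (chromosome 19) had differences of 63.0 and 59.4 points on the mean signal, but −4.76 and −27.7 when the signal was summed over the interval. None of the 4 regions with sequence held an element of 3 units.

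The rank difference moved with the heat shock element, although many pairs higher for HSF2 held none. The 207 pairs with an element of 3 units in either interval had a median rank difference of −36.8 points (−43.1 to −30.4), and the 679 without one 10.7 points (8.19 to 13.7). HSF2 was higher at 131 of the 207 (63.3%) and HSF1 at 12 (5.80%), against 16.8% and 29.5% of the pairs without one. The other 64 were similar. Seen by class, 53.5% of the pairs higher for HSF2 held an element (47.2% to 59.6%, 245 pairs). The share was 14.9% in the similar pairs and 5.66% in those higher for HSF1. Both percentiles differed. With an element the median HSF2 percentile was 85.7 and the median HSF1 percentile 45.2, and without one they were 57.8 and 66.5. The 23 pairs with 4 units had a median difference of −55.9 points (−70.6 to −31.7), 18 of them were higher for HSF2 and the other 5 similar.

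Within the shared regions, and with the HSF1 values of the score table, the 2 factors ranked pairs with an element in opposite order. The shares in this paragraph were not recomputed with the peak list values, and they do not describe the full lists. Of the pairs below percentile 25 of the HSF1 list 47.6% held an element (39.0% to 56.3%, 124 pairs), and the share was 28.4%, 21.2% and 11.6% (8.45% to 15.8%, 292 pairs) in the steps from 25 to 50, 50 to 75 and 75 to 100. For HSF2 the shares ran the other way, from 5.74% below percentile 25 (2.81% to 11.4%, 122 pairs) through 7.69% and 17.2% to 44.6% from percentile 75 (39.2% to 50.1%, 314 pairs). In a window of fixed length, 500 bp around the middle of the overlap, an element was found in 0.943% of the pairs higher for HSF1 (0.259% to 3.37%), 4.66% of the similar ones and 26.1% of those higher for HSF2 (21.0% to 32.0%), against 1.13% of windows placed 5 kb away. Allowing 1 of the 9 fixed bases to differ gave 6.6%, 19.1% and 44.9%, against 10.9% of the windows 5 kb away. For comparison, 0.603% of 32851 RefSeq promoters of 300 bp in GRCm38.p6 hold the exact element.

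The element and the place of the region overlapped as descriptions. Pairs with a coding start had a median rank difference of 9.17 points (6.03 to 12.9) and pairs without one −14.4 (−25.2 to −7.76). With the peak list values these medians were 2.02 (−1.15 to 5.64) and −11.1 (−15.4 to −6.07), a difference of 13.2 points in place of 23.5. An element was present in 16.6% of the former and 35.2% of the latter. Among pairs with a coding start the median was −19.9 points with an element (94 pairs, −26.3 to −13.0) and 14.2 without (471 pairs, 10.7 to 17.3). Away from starts it was −51.7 points with an element (113 pairs, −57.0 to −46.0) and 3.02 without (208 pairs, −2.85 to 7.12). The difference between pairs with and without an element was thus present in both places, and the difference between places was 23.5 points over all pairs and 11.1 among pairs without an element.

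**Figure D3:**
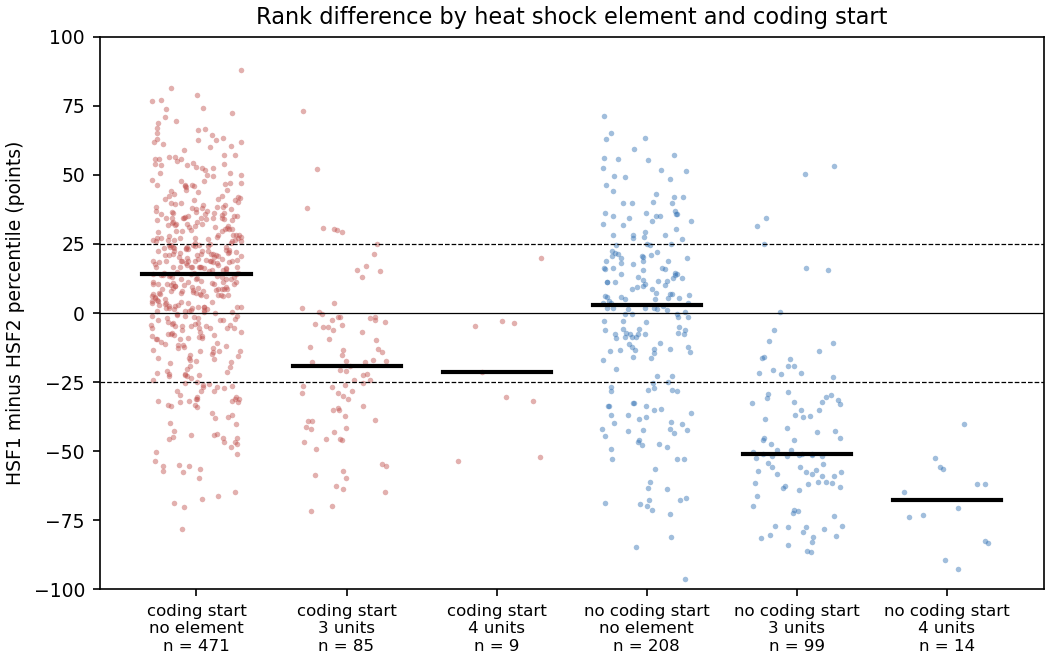
HSF1 minus HSF2 percentile, in points (y axis), of the 886 pairs with reference sequence, by coding start (red) or none (blue) and by heat shock element of 3 or 4 units. Each point is a pair and each bar the median of its group. The median is highest at a coding start without an element (14.2 points), and the 4 groups with an element have medians below 0.

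The base composition of the regions moved with the same classes. The central 500 bp held a median of 34.5 CpG dinucleotides in pairs higher for HSF1, 30 in similar pairs and 13 in pairs higher for HSF2, with a GC content of 60.5%, 59.2% and 54.2%. In the pairs with the fewest CpG (0 to 11) the median rank difference was −51.6 points with an element (89 pairs) and −1.54 without (147 pairs). In those with the most (43 to 90) it was −17.0 (36 pairs) and 16.3 (184 pairs). The same order was found in the classes of 12 to 28 CpG (−40.1 and 10.2) and 29 to 42 CpG (−21.4 and 16.03). Over 886 pairs the CpG count had a rho of 0.244 with the HSF1 percentile, but −0.0015 with the HSF1 percentile of the peak list. For the GC content these values were 0.240 and −0.013. The relation of HSF1 to base composition thus depends on the source of its signal. For HSF2 the CpG count had a rho of −0.174, and −0.173 with the peak list values. The part of base composition in the CUT&Tag signal itself was not tested.

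GC boxes, which SP and KLF factors read, were found in the central 500 bp of 71.7% of the pairs higher for HSF1 (65.3% to 77.3%), 65.3% of the similar ones and 44.9% of those higher for HSF2 (38.8% to 51.2%), and in 9.82% of the windows 5 kb away. At pairs with a coding start alone the shares were 84.0%, 77.9% and 70.0%. CCAAT was found in 54.2% (47.5% to 60.8%), 46.6% and 40.4% (34.5% to 46.7%), against 46.2% of windows 5 kb away, and at coding starts in 59.9%, 48.5% and 38%. The core of the NRF1 site (GCATGCG) was found in 9.91%, 6.76% and 3.27%. The ETS site CCGGAAG (12.7%, 14.9% and 7.76%) and the E-box CACGTG (16.04%, 16.3% and 10.2%) were least frequent in the pairs higher for HSF2 and did not fall from the first class to the next. ACAAT, a core of SOX sites, had the reverse order, with 28.3%, 31.0% and 44.1%, below the 53.2% of windows 5 kb away. All motifs were searched on both strands, a match is a run of letters only, and GC boxes count toward the CpG content. The classes use the HSF1 values of the score table, and these shares were not recomputed with the peak list values.

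SOX2, a pluripotency factor, was profiled in the same cells over a list of sites from the literature. At least 1 SOX2 site lay in the overlap of 233 pairs, which were 19.2% of the pairs higher for HSF1 (14.4% to 25.0%), 28.2% of the similar ones and 29.0% of those higher for HSF2 (23.7% to 35.0%). The median rank difference was −2.85 points (−10.9 to 1.81) at pairs with a SOX2 site and 5.26 (0.77 to 8.23) at the others. Pairs with a SOX2 site lacked a coding start more often than all pairs did (124 of 233, against 323 of 888), so these shares cannot be told apart from place.

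The 5 lists of heat shock and chaperone genes together had 30 genes with a pair, on 28 pairs. HSF2 was higher at 12 of them (40%, against 16.8% of all genes with a pair), HSF1 at 1 (3.33%, against 30.1%) and 17 were similar. Of the 30, 11 had both factors at percentile 75 or above, against 12.0% of all genes with a pair. The median rank difference was −21.5 points over the 30 genes and 9.70 over all 685. The lists were chosen with results of these data known, so the counts describe the genes and do not test the lists.

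Among HSP70 and HSP110 genes, 4 of 6 were higher for HSF2 (Hspa1a, Hspa1b, Hspa1l and Hspa4l) and 2 were similar (Hspa8 and Hsph1). With the sum Hspa1b was at −10.3 points, in the similar class. Hspa1l shares its pair with Hspa1a. Hspa4l, which encodes an HSP110 protein, had an HSF2 signal of 8.40 (79.9) and an HSF1 signal of 4.56 (34.2). Hsph1, the HSP105 gene, had an HSF2 signal of 114 (99.7), near the maximum of all pairs, and an HSF1 signal of 13.7 (87.6).

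Of 10 HSP90 genes and co-chaperones, 3 were higher for HSF2 and 7 similar. Ahsa1, which encodes an activator of the HSP90 ATPase, had 15.7 for HSF2 (92.1) and 4.58 for HSF1 (34.8). Fkbp4 and Fkbp8, immunophilin genes, had differences of −55.2 and −31.7 points. Hsp90ab1, the constitutive HSP90 gene, had an HSF2 signal of 104 (99.7) and an HSF1 signal of 10.6 (79.1), which left it at −20.6 points, close to the threshold. Cacybp (−21.5), Chordc1 (−21.4), Ahsa2 (−7.53), Stip1 (−4.98), Hsp90aa1 (−4.37) and Ptges3 (11.3), the p23 co-chaperone gene, were similar. With the peak list values Cacybp was at −30.9 and Chordc1 at −33.9, with the sum Chordc1 was at 5.79 and Ahsa2 at −26.2, and among paired intervals alone Hsp90ab1 was at −26.6, so these calls depend on the ranking.

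Of 5 HSP40 and BAG genes, Dnajb6, an HSP40 gene, was higher for HSF2 (9.67 and 3.71, percentiles 83.4 and 26.2). Dnajb1 and Dnaja1, the main inducible HSP40 genes, were similar and high for both, with HSF2 signals of 47.2 (98.8) and 31.7 (97.8) and HSF1 signals of 11.7 (82.4) and 9.73 (75.4). Among paired intervals alone Dnaja1 was at −28.6 points. Bag3, a co-chaperone gene of selective autophagy, was low for both (18.9 and 22.2) and Hspbp1 high for both. Both genes of the small heat shock protein and HSP47 list were higher for HSF2, with Serpinh1, the collagen chaperone HSP47, at −59.8 points and Hspb1, the HSP27 gene, at −45.6.

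Chaperonin genes were divided. Cct4 and Cct8, which encode subunits of the cytosolic chaperonin TRiC, were higher for HSF2 (−33.8 and −25.3 points), and Tcp1 and Cct3 were similar (−24.2 and −15.1), as was the pair of Hspd1 and Hspe1. Tcp1 passed the threshold toward HSF2 in all 4 other ways of ranking, at −26.1 to −34.5 points. Cct7 was the only chaperone gene higher for HSF1, with an HSF1 signal of 25.2 (95.8) and an HSF2 signal of 5.94 (67.6). Cct4, Cct8 and Tcp1 hold an element of 3 units and Cct3 and Cct7 do not. With the HSF1 values of the peak list the difference of Cct4 was 5.82 points, so its direction depends on the source, and summed over the interval Cct7 was at 24.5, just inside the similar class.

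**Figure D4:**
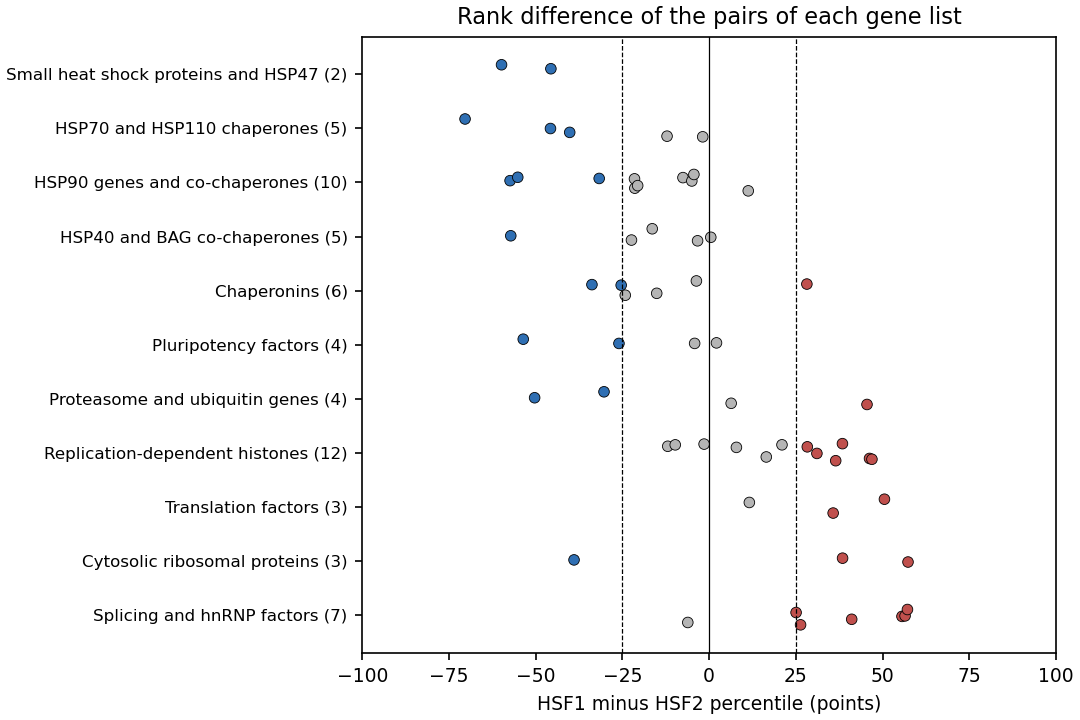
HSF1 minus HSF2 percentile, in points (x axis), of the pairs of each gene list (rows, with the number of distinct pairs), colored red from 25 points, blue from −25 points and gray between. Chaperone lists lie mostly left of 0 and splicing, translation and histone lists mostly right of it.

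The few housekeeping genes of gene expression that had a pair lay mostly on the other side. Of 80 ribosomal protein genes, 8 had an HSF1 site, 17 an HSF2 site and 3 a pair. For 68 translation factor genes these counts were 7, 9 and 3, and for 65 splicing or hnRNP genes 9, 15 and 7. The ranks thus describe the genes with a pair and not the families, and these lists too were chosen with results known. The lists of ribosomal proteins, translation factors and splicing or hnRNP factors had 13 genes with a pair, of which 10 were higher for HSF1 (76.9%, against 30.1% of all genes with a pair), 1 for HSF2 (Rpl38, against 16.8%) and 2 were similar (Hnrnpa2b1 and Eif5a). Among splicing genes, Hnrnpl had an HSF1 signal of 13.5 (87.1) and an HSF2 signal of 2.86 (30.6), Hnrnpk 8.60 and 1.80 (68.5 and 12.9) and Srsf2 8.53 and 2.64 (68.2 and 27.1). Eef1a1 and Eif1, a translation elongation and an initiation factor gene, had differences of 50.6 and 35.8 points, and Rpl41 and Rps29 of 57.4 and 38.5. Summed over the interval, the difference of Eif1 was −22.1 points and that of Sf3b2, a splicing gene at 25.1 points on the mean signal, −7.49. With the peak list values Srsf2 was at 22.6 points and Hnrnpa1 at 15.6, which are similar by the threshold. Rpl38 was similar with those values too, at percentile 38.6 for HSF1 and 61.5 for HSF2.

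The clustered histone genes, which are transcribed in S phase, had 31 genes on 12 pairs of chromosome 13. HSF1 was higher at 15 of these genes, on 6 of the pairs, and HSF2 at none, against 30.1% and 16.8% of all genes with a pair. The pair with the largest difference covers Hist1h2af, Hist1h3g and Hist1h4h (HSF1 9.05 and HSF2 2.52, percentiles 71.5 and 24.5). With the sum, the pairs of Hist1h2ao and of Hist1h2ag fell to 16.3 and 12.3 points, in the similar class. Histone genes are near-identical copies, so reads could be shared between them and neighboring genes share a pair.

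Proteasome and ubiquitin genes had 4 members with a pair. Ubqln1 and Ubb, a polyubiquitin gene, were higher for HSF2 (−50.3 and −30.3 points, with Ubb at −5.71 by the peak list values), Psmd3 was similar (6.37, and 29.6 with the sum) and Ubqln4 was higher for HSF1 at 45.5 points, but at −5.21 points with the peak list values. With the sum Ubb stood at percentile 75.8 for HSF1 and 89.5 for HSF2, in the similar class. Of 4 pluripotency genes, Tbx3 (HSF2 16.5 at percentile 92.7, HSF1 5.00 at 39.2) and Mycn (−26.0 points, and −17.7 by the peak list values) were higher for HSF2. Mycn was also similar with the sum, at percentile 82.2 for HSF1 and 89.7 for HSF2. Pou5f1, which encodes OCT4, had 10.1 and 9.05 (77.3 and 81.5) and Klf2 9.50 and 6.55 (74.0 and 71.9), and both were similar.

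The tagged forms of HSF2 ranked the shared regions more like HSF1 than like endogenous HSF2. Over the 888 pairs, the HSF1 percentile had a rho of 0.717 with Halo-HSF2 by anti-HA, 0.706 with Halo-H2DBD and 0.601 with Halo-HSF2 by anti-HSF2. Endogenous HSF2 had −0.029, −0.036 and 0.049 with the same signals. These values come from 1 set of intervals and share mapping and base composition, and they are given as descriptions. The median percentile of Halo-HSF2 by anti-HA was 78.4 in pairs higher for HSF1, 70.0 in similar pairs and 26.4 in pairs higher for HSF2. With anti-HSF2, the antibody of the endogenous profile, it was 63.3, 65.5 and 25.7, and for Halo-H2DBD 75.6, 71.7 and 26.4.

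Named genes showed both patterns. Nlk and Kbtbd3 ranked at 70.3 and 91.3 for Halo-HSF2 by anti-HA, although endogenous HSF2 was at 2.86 and 17.1. Hspa1a, Tnfrsf19 and Lats2 ranked at 11.6, 7.21 and 4.45, with endogenous HSF2 at 88.0, 90.0 and 76.8. Hsp90aa1 and Stip1, near the top for endogenous HSF2, were at 41.3 and 52.7. Other named genes did not follow this order, or differed between the 2 antibodies. Bend4 was at 60.3 by anti-HA and 55.9 by anti-HSF2, and Hnrnpa2b1 at 94.1 and 71.1. Otx1 was at 36.1 by anti-HA and 86.7 by anti-HSF2, Ahsa1 at 56.8 and 9.37, Hspa8 at 75.9 and 44.7, and Nlk at 70.3 and 47.6. In pairs with an element the median Halo-HSF2 percentile was 30.3 by anti-HA and 30.0 by anti-HSF2, against 69.9 and 61.5 without one. Whether expression of the tagged protein, the knockout cells, the depth of the tracks or the antibodies move with this was not tested. Every tagged profile comes from knockout cells that express a construct, so the knockout and the expression of the tagged protein cannot be told apart. The paper could not fully exclude that the Tn5 fusion prefers open chromatin, and the part of this was not tested here either.

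**Figure D5:**
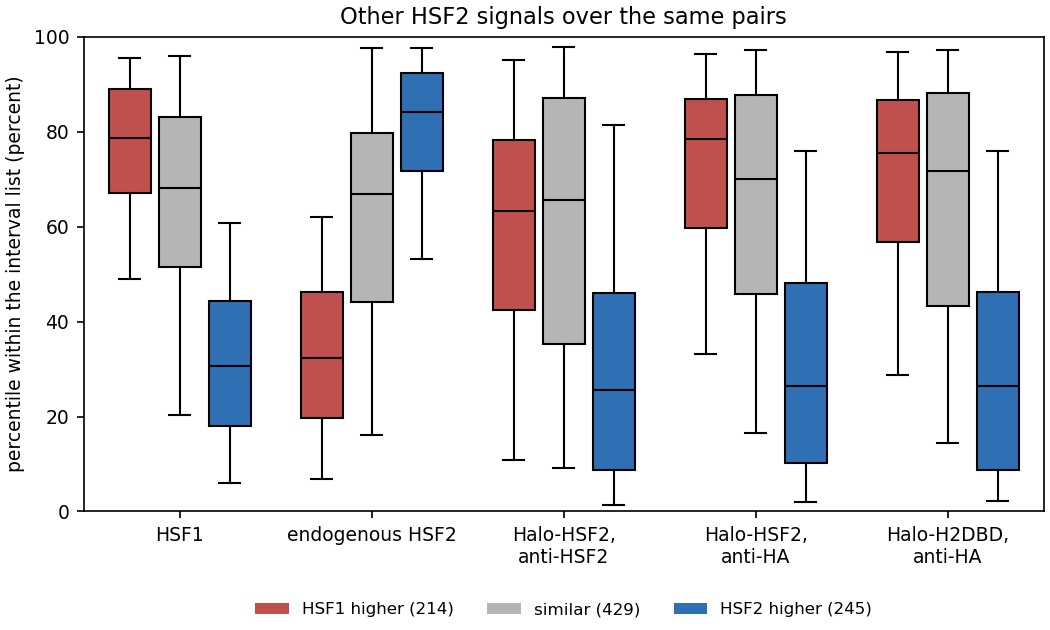
Percentile (y axis) of HSF1 within the HSF1 list and of endogenous HSF2, Halo-HSF2 and Halo-H2DBD within the HSF2 list, for pairs higher for HSF1 (red, 214), similar (gray, 429) and higher for HSF2 (blue, 245). Boxes span the quartiles with the median as a line and whiskers the 5th to 95th percentiles, and the blue medians are the lowest in every signal other than endogenous HSF2.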

How the data were processed

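CUT&Tag tracks of JM8 cells were used as deposited. The authors aligned reads to mm10 with Bowtie2, kept PCR duplicates, scaled coverage by Drosophila spike-in reads, called HSF1 and HSF2 sites with SEACR against IgG and combined those of both phases. The deposited values are mean scaled signal per interval, averaged by the authors over 2 libraries, with no replicate columns or read totals. Totals that the study's supplement lists for some libraries were not used here. The members, gene lists and thresholds were chosen with earlier results of these data known.

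Intervals of the HSF1 and HSF2 score tables were paired from 1 bp of overlap, and percentiles were taken in each full list. Named were the 10 genes with the largest difference in each direction among those preferred (percentile 75 or above and 25 points above the other factor), the 10 with the highest smaller percentile where both reached 75, the 5 largest pairs in each direction without a coding start, all chaperone list members with a pair and up to 4 of each other list. A gene that this rule selects is not reported here. A gene with several pairs kept that with the nearest start. Genes came from the GENCODE M21 basic annotation and sequence from GRCm38.p6, in which all intervals fitted their chromosomes, while 2 pairs on unplaced scaffolds had no sequence. No test was run. Alternatives were other ranks, thresholds, overlaps, elements and starts. The functions were tested on simulated data. Python 3.11.15, numpy 2.4.6, pandas 2.3.3, scipy 1.17.1, pysam 0.24.0 and matplotlib 3.10.9 were used.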

Additional observations from a re-analysis of the deposited data

How the results depend on the processing

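No paired analysis was possible because the deposited columns are means over both libraries, and for the same reason no library could be left out in turn. Of 62 recomputed values for the counts, the correlation and the medians by element and coding start, 42 stayed close to those reported and 20 moved. A threshold of 10 points gave 372 pairs higher for HSF1 and 184 similar, and a threshold of 40 points gave 102 higher for HSF1 and 157 for HSF2. Pairs with both percentiles at 75 or above numbered 57 when ranked among paired intervals alone and 170 with the signal summed over the interval. The rank correlation of 0.038 was 0.258 with the sum, 0.183 with the peak list values, 0.104 as a Pearson correlation of log2 signal and −0.172 among pairs with at least 1 factor at or above its median, a choice that removes pairs low for both. The difference between the medians with and without an element, −47.5 points, was −58.9 with 4 units, −19.4 with 2 units and −38.2 with the sum. Among alternatives chosen after the data were seen, it was −38.4 with 1 base changed in the central window, −34.1 at coding starts, −54.7 away from them and −36.2 with the peak list values. The difference between coding starts and other places, 23.5 points, was 36.5 with starts of all biotypes and, among alternatives added later, 11.1 without elements and 13.2 with the peak list values. No alternative run changed the sign of these differences. The causes were not tested. Among 460 recomputed differences of named genes and regions, 415 kept their class, 39 moved to another and 6 reversed. With the sum the region near Abt1 reversed to −4.76, that near Csf2ra to −27.7, Sf3b2 to −7.49 and Eif1 to −22.1, and with the peak list values Cct4 reversed to 5.82 and Ubqln4 to −5.21.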

Other observations

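The intervals outside the pairs differed in the element as well. An element of 3 units was found in 20.4% of the paired and 11.3% of the unpaired HSF1 intervals, and in 22.1% of the paired and 8.62% of the unpaired HSF2 intervals with sequence. Median widths were 2127 and 1730 bp for HSF1 and 2686 and 2233 bp for HSF2.

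The rank difference of the pairs in asynchronous cells had a rho of 0.694 with that in mitotic cells over 888 pairs. The HSF1 percentile of a pair had a rho of 0.916 between the phases and the HSF2 percentile 0.658. In mitotic cells the pairs higher for HSF1 in asynchronous cells stood at median percentiles of 78.2 for HSF1 and 49.6 for HSF2, and the pairs higher for HSF2 at 30.6 and 75.9.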
